A study of Homo sapiens with 30 samples.

Results

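MDAMB231, a breast cancer line, differed from both COLO205 and HCT116, 2 colorectal cancer lines, in most genes under vehicle. Vimentin and most tested mesenchymal and caveolar genes were higher in it, and most epithelial junction genes were low or listed at 0. The comparison used 9 of the 30 libraries of the study, 3 each of MDAMB231, COLO205 and HCT116 after 16 h in 0.01% DMSO, and set MDAMB231 against the mean of the colorectal lines, each line weighing the same. It covered the 13915 of 30373 genes that reached 1 FPKM (fragments per kilobase of transcript, scaled to the fragments of the library) in at least 3 of the 9 libraries. The study itself asked what the SUMO-activating enzyme inhibitor ML-792 does to the messenger RNA of these lines. Neither ML-792 nor heat shock was applied to the 9 libraries, but each culture had received the DMSO vehicle.

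The labels describe the libraries as biological triplicates of RNA from cultured cells. Each tissue was represented by very few lines, 1 breast line and 2 colorectal lines, so tissue of origin and the particular line cannot be told apart, and every p-value below measures the spread between cultures of 1 line. MDAMB231 is widely used as a model of breast cancer without hormone receptors and with mesenchymal features, while COLO205 and HCT116 are colorectal lines that grow with epithelial features. Epithelial cells hold together through E-cadherin junctions, tight junctions and desmosomes, and share a set of transcription and splicing regulators. In cells that leave this state, repressors of the ZEB and SNAI families bind E-box motifs in epithelial promoters, and cytoskeletal, matrix and protease genes are raised.

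The libraries of a line were close to each other. Summed FPKM ranged from 462980 to 465750 in MDAMB231, from 498443 to 517832 in COLO205 and from 491193 to 517128 in HCT116, and 1 FPKM was reached by 11880 to 12297 genes per library. Sequencing depth is unknown in counts, but the steps between low values put the depth of the 9 libraries within 0.80 to 1.00 of the deepest. Across genes, Pearson's r on log2(FPKM + 1) was at least 0.996 within a line (genes are not independent replicates). Most markers of cells that could have been mixed in were near 0. The highest of the 9 values was 0.0593 FPKM for PTPRC (leukocytes), 0.279 FPKM for PECAM1 and 0.0191 FPKM for CDH5 (endothelium), and 0 for DCN (fibroblasts). Higher were CD14, an immune marker, and LUM, a fibroblast marker, which reached 1.24 and 0.710 FPKM, both in MDAMB231. Of the longer marker lists, few members were expressed enough to be tested, 3 of 16 immune, 2 of 12 endothelial and 3 of 11 fibroblast genes. The endothelial sum was 39.0 to 41.4 FPKM in MDAMB231, at most 0.279 FPKM in COLO205 and at most 4.13 FPKM in HCT116, mostly from the adhesion gene ESAM, and the immune sum was 57.8 to 62.9 FPKM in MDAMB231, 917 to 980 FPKM in COLO205 and 5.26 to 5.74 FPKM in HCT116, mostly from LYZ and CD68. Fibroblast markers summed to 6.77 to 7.45 FPKM in MDAMB231, 1.08 to 1.36 FPKM in COLO205 and 10.3 to 11.5 FPKM in HCT116.

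The colorectal lines were no closer to each other than HCT116 was to MDAMB231. Pearson's r across genes was 0.721 to 0.725 between MDAMB231 and COLO205 libraries, 0.810 to 0.815 between MDAMB231 and HCT116 libraries, and 0.770 to 0.776 between COLO205 and HCT116 libraries, as a description. The median absolute difference on the log2(FPKM + 1) scale was 0.66 for MDAMB231 minus COLO205, 0.56 for MDAMB231 minus HCT116 and 0.59 for COLO205 minus HCT116. These pairs share libraries, so the values stand side by side and were not tested against each other.

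With cultures this alike, most genes passed the test. Under limma with Benjamini-Hochberg adjustment, 12407 of 13915 genes (89.2%) had an adjusted p under 0.05 for MDAMB231 minus the mean of the colorectal lines, 5637 (40.5%) higher and 6770 (48.7%) lower. A difference of at least 2-fold on the log2(FPKM + 1) scale was met by 1980 genes (14.2%) that were higher and 1895 (13.6%) that were lower. When the 6 colorectal libraries were instead treated as 1 group, so that the difference between COLO205 and HCT116 counted as spread, 6326 genes passed. A contrast against a mean can come from 1 line alone: 1925 genes (13.8%) that passed it lay between the colorectal lines. The results below therefore lead with genes that passed against COLO205 and against HCT116 in the same direction. MDAMB231 was above both lines in 3666 genes (26.3%) and below both in 4035 (29%), and by at least 2-fold in 1235 (8.88%) and 747 (5.37%). Which direction held more genes depended on the scaling: with libraries scaled to equal totals, 6303 genes were higher and 6003 lower, and 4244 were above both lines and 3396 below both. For MDAMB231 minus COLO205 alone, 87.8% of genes passed, for MDAMB231 minus HCT116 85.1%, and for COLO205 minus HCT116 86.4%.

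**Figure D1:**
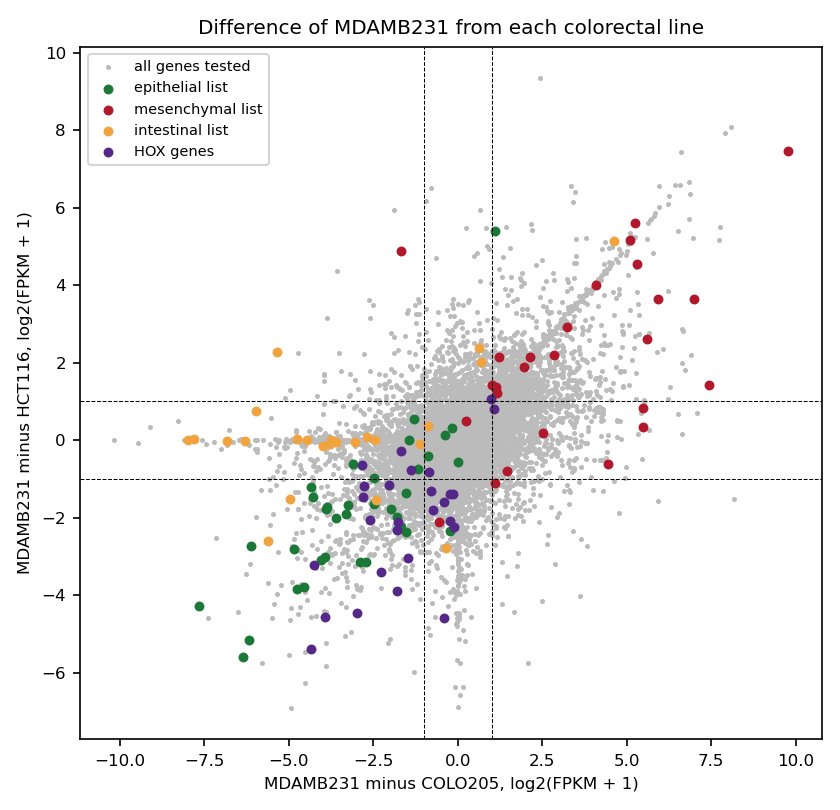
Difference of MDAMB231 from COLO205 (x axis) and from HCT116 (y axis), both on the log2(FPKM + 1) scale, for the 13915 genes tested (grey) and for members of 4 gene lists (coloured), with dashed lines at 2-fold. Mesenchymal genes gather at the upper right, epithelial and HOX genes at the lower left, and most intestinal genes lie along the line of no difference from HCT116.

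Epithelial junction genes and their regulators were low in MDAMB231. Of 35 members, all of which were tested, 32 were lower and 1 was higher than the colorectal mean, and 24 (68.6%) were at least 2-fold below both lines, against 5.37% of all genes tested. The median difference was -2.46 on the log2 scale, against -0.09 over all genes tested. CDH1, which encodes E-cadherin, had 0.387, 0.368 and 0.461 FPKM in MDAMB231, against 99.0, 97.0 and 94.4 FPKM in COLO205 and 7.73, 8.39 and 8.69 FPKM in HCT116. The lowest HCT116 library was thus far above the highest MDAMB231 library, and the difference was -4.42 ± 0.04 (SE; limma, adjusted p = 1.44e-15). EPCAM, an epithelial adhesion molecule, was lower but not absent, with 15.3 ± 0.55 FPKM in MDAMB231, 467 ± 17 FPKM in COLO205 and 113 ± 7.6 FPKM in HCT116 (SD, n = 3 each, as for every ± beside an FPKM below). In bulk RNA, fewer expressing cells and less RNA per cell cannot be told apart.

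The splicing gene ESRP1, the trafficking gene RAB25 and the anchoring gene LAD1 were nearly silent in MDAMB231. ESRP1, which directs epithelial splicing, had 0.0274, 0.0378 and 0.0105 FPKM in MDAMB231, against 74.1, 72.2 and 73.7 FPKM in COLO205 and 34.2, 37.2 and 35.1 FPKM in HCT116, a difference of -5.67 ± 0.03 (limma, adjusted p = 1.53e-16). RAB25, a small GTPase of apical recycling, was listed at 0, 0 and 0.0301 FPKM in MDAMB231, against 78.6, 80.7 and 85.0 FPKM in COLO205 and 42.0, 50.3 and 52.9 FPKM in HCT116. LAD1, an anchoring filament protein, was at most 0.00996 FPKM in MDAMB231 and averaged 203 FPKM in COLO205 and 18.5 FPKM in HCT116. In each of these genes the lines did not overlap, which holds for 29.7% of all genes tested in this direction.

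Transcription factors of epithelial identity followed the junction genes. GRHL2, an activator of E-cadherin and claudin genes, averaged 0.0482 ± 0.045 FPKM in MDAMB231, 14.5 ± 0.11 FPKM in COLO205 and 2.61 ± 0.35 FPKM in HCT116. OVOL1, a repressor of mesenchymal genes, averaged 0.0179 FPKM in MDAMB231, 8.72 FPKM in COLO205 and 2.24 FPKM in HCT116. The membrane protease ST14 (matriptase) fell to 1.68 ± 0.09 FPKM in MDAMB231, against 71.7 ± 3.7 FPKM in COLO205 and 37.4 ± 4.0 FPKM in HCT116, and PRSS8 (prostasin), which works with it, averaged 0.227 FPKM in MDAMB231, 28.0 FPKM in COLO205 and 16.0 FPKM in HCT116. Their shared inhibitor SPINT1 averaged 3.65 FPKM in MDAMB231, 76.9 FPKM in COLO205 and 38.8 FPKM in HCT116.

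Some epithelial genes differed little. CLDN4, a tight junction claudin, averaged 77.7 FPKM in MDAMB231, 88.0 FPKM in COLO205 and 62.2 FPKM in HCT116 and did not pass the test against the mean. SPINT2 did not pass either, with 166 FPKM in MDAMB231, 217 FPKM in COLO205 and 151 FPKM in HCT116. Desmosomal transcripts were also present in MDAMB231: DSG2 averaged 30.9 FPKM in MDAMB231, 30.6 FPKM in COLO205 and 45.8 FPKM in HCT116, so MDAMB231 overlapped COLO205.

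The promoters of several of these genes hold the E2 box, CAGGTG or CACCTG on the printed strand, that ZEB1 and SNAI proteins are known to bind. RefSeq promoters (GRCh38.p14, a fixed window around each gene's start) were at hand for 20 of the 35 epithelial genes, too few to describe the list. Of these, 11 held an E2 box, against 20.6% of all 27305 promoters of that length and 18.8% of the 10470 promoters of genes tested. The sequences printed are those of CRB3 (chr19:6464021-6464320, plus strand), RAB25 (chr1:156060910-156061209, plus strand) and LAD1 (chr1:201399275-201399574, minus strand), chosen after the matches were seen because they hold 5, 2 and 2 E2 boxes and their genes were below both colorectal lines. The promoter of DSG2, a gene in which MDAMB231 overlapped COLO205, was not printed and also held 2 E2 boxes. Nor were those of AP1M2, with 3 E2 boxes, and DSP, with 2. Capitals mark each match. CRB3, a polarity protein of the apical membrane, averaged 0.404 FPKM in MDAMB231, 20.5 FPKM in COLO205 and 10.6 FPKM in HCT116. A match describes the sequence only, and no binding was measured.
CRB3: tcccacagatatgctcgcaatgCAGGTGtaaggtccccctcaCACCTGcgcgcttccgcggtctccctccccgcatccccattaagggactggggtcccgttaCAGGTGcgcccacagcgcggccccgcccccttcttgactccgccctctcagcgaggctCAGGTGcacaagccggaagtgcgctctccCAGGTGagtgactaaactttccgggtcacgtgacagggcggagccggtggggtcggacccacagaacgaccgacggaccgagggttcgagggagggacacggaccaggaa
RAB25: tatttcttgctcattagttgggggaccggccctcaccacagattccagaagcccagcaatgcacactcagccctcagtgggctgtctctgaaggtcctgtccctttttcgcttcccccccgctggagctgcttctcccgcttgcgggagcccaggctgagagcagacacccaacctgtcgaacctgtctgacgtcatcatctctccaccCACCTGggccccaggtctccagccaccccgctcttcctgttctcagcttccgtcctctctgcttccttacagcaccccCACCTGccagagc
LAD1: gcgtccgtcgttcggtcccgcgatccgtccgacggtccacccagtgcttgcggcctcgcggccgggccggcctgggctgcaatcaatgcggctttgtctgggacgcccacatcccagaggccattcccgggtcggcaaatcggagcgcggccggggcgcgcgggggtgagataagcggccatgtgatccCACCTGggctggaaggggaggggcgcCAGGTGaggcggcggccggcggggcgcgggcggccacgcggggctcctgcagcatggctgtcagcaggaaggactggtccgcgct

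Mesenchymal genes were high in MDAMB231, and the repressors of the epithelial state were among them. Of 37 members, 26 passed the filter on low values; 24 of these were higher and 1 was lower than the colorectal mean, and 17 (65.4%) were at least 2-fold above both lines, against 8.88% of all genes tested. The filter favours members that are high in at least 1 line, here and in every other list with untested members. The 11 mesenchymal members left out reached at most 0.870 FPKM in any library. VIM, the intermediate filament protein vimentin, had 864, 858 and 931 FPKM in MDAMB231, against 0.0148, 0 and 0 FPKM in COLO205 and 4.23, 3.6 and 4.27 FPKM in HCT116. It gave the largest difference among the genes named here, 8.62 ± 0.05 (limma, adjusted p = 6.79e-17).

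Among the repressors, SNAI2 had 16.2, 16.0 and 16.4 FPKM in MDAMB231, against at most 0.0149 FPKM in COLO205 and at most 0.128 FPKM in HCT116. ZEB1 had 10.6, 9.88 and 10.7 FPKM in MDAMB231, against 0.578, 0.729 and 0.465 FPKM in COLO205 and 1.51, 1.45 and 1.47 FPKM in HCT116, a difference of 2.52 ± 0.05 (limma, adjusted p = 8.22e-13). ZEB2 was lower in level but also above both lines, with 1.40 FPKM in MDAMB231, 0.0623 FPKM in COLO205 and 0.0246 FPKM in HCT116. SNAI1 ran the other way: it averaged 0.793 FPKM in MDAMB231, 1.65 FPKM in COLO205 and 6.67 FPKM in HCT116 and was the 1 mesenchymal member below both. The classical markers CDH2 (N-cadherin), SPARC and TWIST1 did not reach 1 FPKM in any library.

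The remaining mesenchymal genes encode matrix, adhesion and signalling proteins. AXL, a receptor tyrosine kinase, had 181, 180 and 182 FPKM in MDAMB231, against 0.533, 0.436 and 0.340 FPKM in COLO205 and 15.2, 12.4 and 13.2 FPKM in HCT116. CDH11, a mesenchymal cadherin, averaged 34.9 ± 0.26 FPKM in MDAMB231 and 0.0577 ± 0.037 FPKM in COLO205 and was listed at 0 in the 3 HCT116 libraries. FN1 (fibronectin) averaged 54.9 ± 2.4 FPKM in MDAMB231, 0.409 ± 0.056 FPKM in COLO205 and 1.41 ± 0.053 FPKM in HCT116. The lysyl oxidase LOXL2, which crosslinks collagen, averaged 104 ± 1.5 FPKM in MDAMB231, 0.733 ± 0.13 FPKM in COLO205 and 7.32 ± 0.40 FPKM in HCT116, and COL5A1 averaged 48.8 ± 1.7 FPKM in MDAMB231, 0.306 ± 0.033 FPKM in COLO205 and 0.0164 ± 0.0082 FPKM in HCT116. HCT116 shared part of the programme: MSN (moesin) averaged 181 FPKM in MDAMB231, 0.0499 FPKM in COLO205 and 66.9 FPKM in HCT116, COL6A1 averaged 49.9, 0.146 and 39.1 FPKM in the same order of lines, and CD44, a hyaluronan receptor, averaged 140 ± 2.2 FPKM in MDAMB231, 23.3 ± 0.99 FPKM in COLO205 and 123 ± 2.2 FPKM in HCT116.

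**Figure D2:**
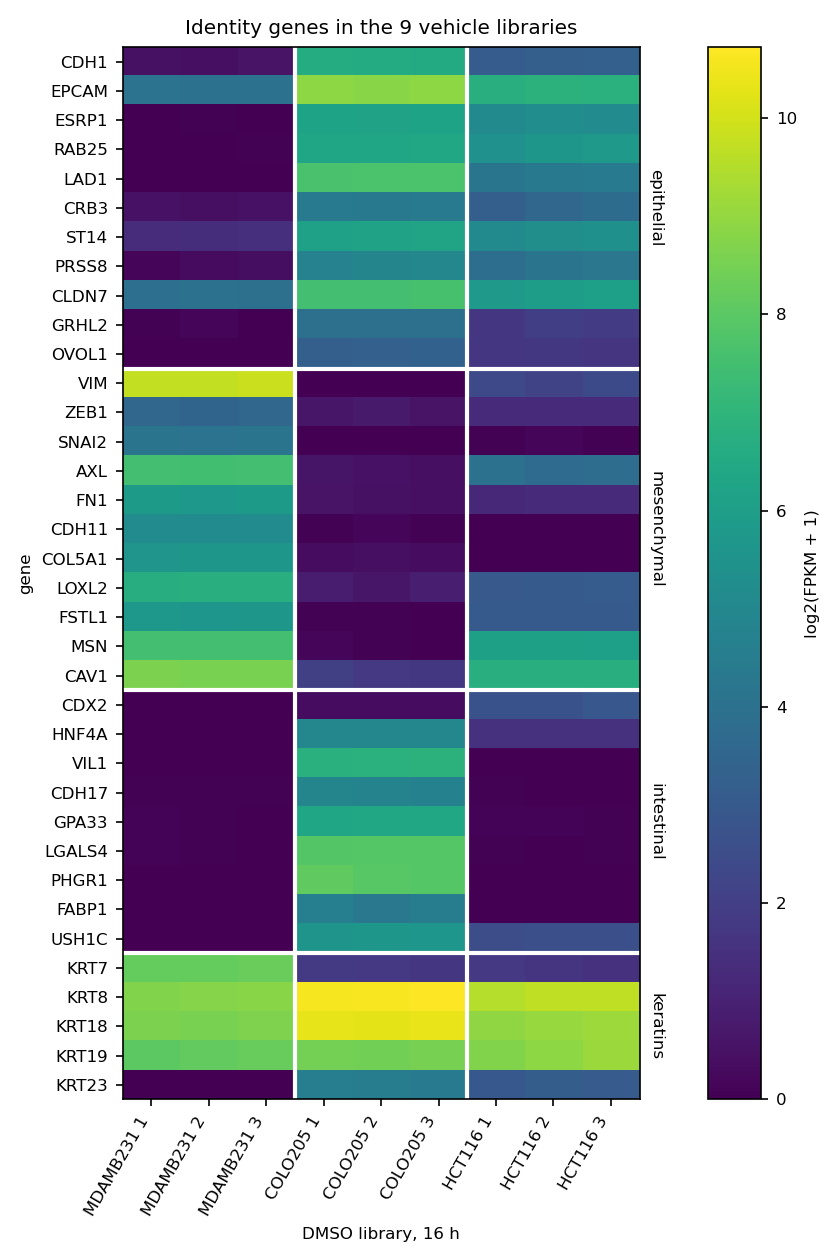
Levels of epithelial, mesenchymal, intestinal and keratin genes, picked from the lists after their values were seen, as log2(FPKM + 1) in each of the 9 vehicle libraries (columns, 3 per line, MDAMB231 first). Epithelial genes are dark in the 3 MDAMB231 libraries and mesenchymal genes bright, whereas most intestinal genes are bright in the 3 COLO205 libraries alone.

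Genes of the caveola, a flask-shaped membrane pit built from caveolins and cavins, were higher in MDAMB231 in 7 of the 8 tested of 9 members and lower in 1, against 40.5% higher and 48.7% lower over all genes. Of the 8, 5 were at least 2-fold above both lines (8.88% of all genes) and 2 lay between the colorectal lines. CAV1 (caveolin-1) had 384, 373 and 375 FPKM in MDAMB231, against 3.04, 2.46 and 2.34 FPKM in COLO205 and 107, 107 and 104 FPKM in HCT116. PTRF (cavin-1) averaged 181 ± 5.1 FPKM in MDAMB231, 0.811 ± 0.12 FPKM in COLO205 and 44.4 ± 0.52 FPKM in HCT116, and EHD2, which stabilises caveolae, averaged 77.2 ± 1.8 FPKM in MDAMB231, 0.0103 ± 0.0099 FPKM in COLO205 and 29.2 ± 1.8 FPKM in HCT116. In these 3 genes HCT116 lay between the other lines, and for CAV1 the difference was 6.72 from COLO205 and 1.82 from HCT116 on the log2 scale. PRKCDBP (cavin-3) did not have this order, with 50.0 ± 7.0 FPKM in MDAMB231, 4.87 ± 0.15 FPKM in COLO205 and 5.53 ± 1.2 FPKM in HCT116, where the colorectal lines overlapped. Nor did SDPR (cavin-2), with 15.2 FPKM in MDAMB231, 0.594 FPKM in COLO205 and 0.0720 FPKM in HCT116.

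Genes of the plasminogen system and the matrix proteases, which degrade extracellular matrix around migrating cells, were higher on balance. Of 28 members 17 were tested, 12 higher and 5 lower, 8 of them (47.1%) at least 2-fold above both lines and 2 (11.8%) below both, against 8.88% and 5.37% over all genes. Among the activators, PLAU (urokinase) had 177, 172 and 180 FPKM in MDAMB231, against 5.03, 5.0 and 5.01 FPKM in COLO205 and 25.2, 26.1 and 26.0 FPKM in HCT116 (difference 3.80 ± 0.03; limma, adjusted p = 3.41e-16), and PLAT (tissue plasminogen activator) averaged 132 ± 1.9 FPKM in MDAMB231, 0.0707 ± 0.040 FPKM in COLO205 and 2.58 ± 0.21 FPKM in HCT116. PLAUR, the urokinase receptor, averaged 43.7 ± 2.3 FPKM in MDAMB231, 5.64 ± 0.67 FPKM in COLO205 and 24.7 ± 1.8 FPKM in HCT116.

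Among metalloproteases, MMP14, a membrane-bound collagenase, averaged 115 FPKM in MDAMB231, 19.2 FPKM in COLO205 and 6.62 FPKM in HCT116. The tissue inhibitor TIMP3 had 116, 113 and 113 FPKM in MDAMB231, and at most 0.00636 FPKM in COLO205 and 0.150 FPKM in HCT116. TIMP2 averaged 231 ± 3.4 FPKM in MDAMB231, 2.44 ± 0.085 FPKM in COLO205 and 44.1 ± 0.27 FPKM in HCT116. The exceptions were SERPINB5 (maspin), an epithelial serpin, at 0.0507 FPKM in MDAMB231, 50.9 FPKM in COLO205 and 12.6 FPKM in HCT116, and ADAM19 and MMP15, which were also below both lines.

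Integrin subunits, the receptors for matrix, were higher in 10 and lower in 5 of the 17 tested of 25, with 6 (35.3%) at least 2-fold above both lines, against 40.5% higher, 48.7% lower and 8.88% at 2-fold above both over all genes. ITGB1, the common partner of many alpha chains, had 374, 358 and 358 FPKM in MDAMB231, against 73.5, 67.5 and 70.0 FPKM in COLO205 and 113, 107 and 104 FPKM in HCT116. The alpha chains that bind laminin and fibronectin, ITGA3 and ITGA5, averaged 263 ± 6.6 and 43.0 ± 2.2 FPKM in MDAMB231, 21.8 ± 0.48 and 3.72 ± 0.15 FPKM in COLO205, and 64.9 ± 3.0 and 16.0 ± 0.36 FPKM in HCT116. ITGB4, the hemidesmosome subunit of epithelial cells, was below both lines, with 79.8 FPKM in MDAMB231, 185 FPKM in COLO205 and 93.6 FPKM in HCT116.

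Targets and components of the YAP and TGF-beta pathways, which respond to tension and to matrix, were higher in 21 and lower in 5 of the 26 tested of 27, against 40.5% higher and 48.7% lower over all genes, with a median difference of 1.22. Secreted targets led: CYR61 had 248, 252 and 264 FPKM in MDAMB231, against 0.302, 0.0670 and 0.162 FPKM in COLO205 and 5.54, 3.97 and 4.66 FPKM in HCT116, CTGF averaged 56.3 ± 0.79 FPKM in MDAMB231, 0.812 ± 0.051 FPKM in COLO205 and 1.11 ± 0.31 FPKM in HCT116, and THBS1 (thrombospondin-1) averaged 135 ± 3.3 FPKM in MDAMB231, 0.181 ± 0.058 FPKM in COLO205 and 1.62 ± 0.095 FPKM in HCT116. ANKRD1, a nuclear target, averaged 117 ± 1.1 FPKM in MDAMB231 and 0.444 ± 0.13 FPKM in HCT116 and was listed at 0 in the 3 COLO205 libraries. The ligand TGFB2 averaged 17.9 ± 0.27 FPKM in MDAMB231, 0.00182 ± 0.0032 FPKM in COLO205 and 0.0689 ± 0.034 FPKM in HCT116. The factors themselves differed less: YAP1 averaged 43.7 FPKM in MDAMB231, 31.0 FPKM in COLO205 and 30.7 FPKM in HCT116. ID2, an inhibitor of E-box factors, ran the other way, with 0.535 FPKM in MDAMB231, 12.6 FPKM in COLO205 and 46.9 FPKM in HCT116.

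**Figure D3:**
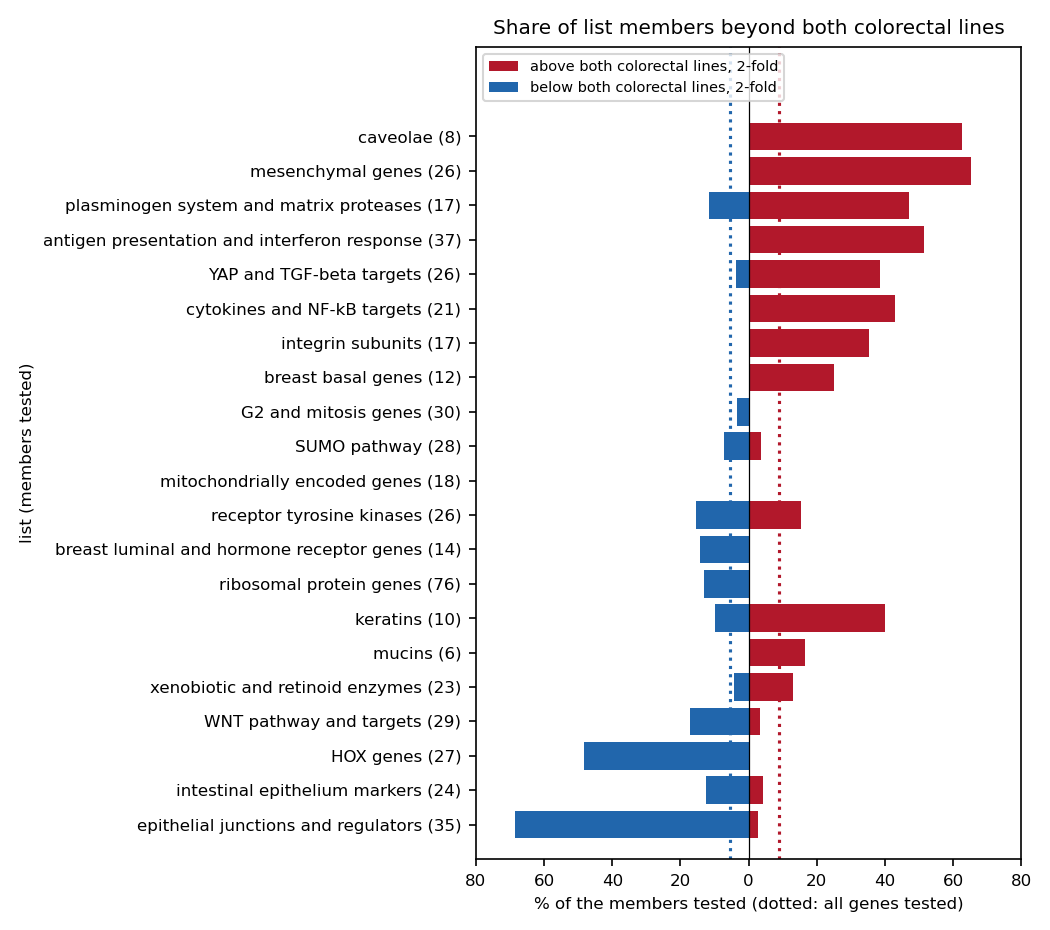
Share of the tested members of each list described here (number tested in brackets, at least 6) that lay at least 2-fold above both colorectal lines (bars to the right) or below both (bars to the left), in percent, with lists ordered by median difference and dotted lines at the shares over all genes tested, 8.88% and 5.37%. The mesenchymal list reaches 65.4% above both, and the epithelial list 68.6% below both.

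Intestinal epithelium markers separated COLO205 from both other lines more than they separated tissues. Of 40 members 24 were tested; 21 were lower and 3 higher in MDAMB231 against the colorectal mean, yet only 5 were below both lines, close to what 29% of all genes gives. The median difference was -3.77 from COLO205 and 0.00 from HCT116. VIL1 (villin), a protein of the brush border, was listed at 0 in the 3 MDAMB231 libraries, against 111, 114 and 117 FPKM in COLO205 and 0.0149, 0.0171 and 0.0244 FPKM in HCT116. LGALS4, an intestinal galectin, averaged 0.0523 ± 0.032 FPKM in MDAMB231, 235 ± 2.3 FPKM in COLO205 and 0.0338 ± 0.030 FPKM in HCT116, and CDH17 and GPA33, intestinal adhesion proteins, averaged 0.0327 and 0.0440 FPKM in MDAMB231, 26.8 and 81.3 FPKM in COLO205, and 0.0194 and 0.0619 FPKM in HCT116. HCT116, a colorectal line by its label, was thus as low as MDAMB231 in these markers.

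Regulators of gut identity were among the members below both lines. CDX2, the intestinal homeobox factor, was listed at 0 in the 3 MDAMB231 libraries, against 0.268, 0.288 and 0.267 FPKM in COLO205 and 5.53, 5.44 and 6.63 FPKM in HCT116, so it was higher in HCT116 than in COLO205, unlike VIL1 and LGALS4. HNF4A, a nuclear receptor of gut and liver, was listed at 0 in the 3 MDAMB231 libraries and averaged 30.3 FPKM in COLO205 and 1.89 FPKM in HCT116. KRT20, a keratin of the colon surface, reached at most 0.822 FPKM in any library. SPINK4, a goblet cell marker, was above both colorectal lines, with 34.2 ± 2.3 FPKM in MDAMB231, 0.412 ± 0.071 FPKM in COLO205 and 0 in the 3 HCT116 libraries.

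Breast hormone receptor genes were not detected above trace levels. The oestrogen and progesterone receptor genes ESR1 and PGR reached at most 0.00706 and 0.00305 FPKM in any of the 9 libraries. ERBB2 had 19.4, 19.95 and 20.2 FPKM in MDAMB231, against 48.3, 51.7 and 51.2 FPKM in COLO205 and 18.3, 19.4 and 20.4 FPKM in HCT116, so MDAMB231 and HCT116 overlapped. Of the 14 luminal genes tested of 20, 5 were higher and 9 lower, against 40.5% and 48.7% over all genes. Only 1 was above both lines and 3 were below both, against 26.3% and 29%. Between the colorectal lines lay 6 of the 14, against 2775 of all 13915 genes tested. The luminal factor FOXA1 averaged 0.00658 FPKM in MDAMB231, 1.15 FPKM in COLO205 and 0.739 FPKM in HCT116, and GATA3 averaged 3.08, 5.33 and 0.551 FPKM in the same order of lines.

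Basal markers were divided. The basal keratins KRT5, KRT14 and KRT17 reached at most 0.137, 0.0864 and 0.340 FPKM in any library, and the basal factor TP63 at most 0.310 FPKM. Of the 12 basal genes tested of 20, 7 were higher and 4 lower, against 40.5% and 48.7% over all genes. EGFR, the epidermal growth factor receptor, had 28.4, 29.5 and 29.1 FPKM in MDAMB231, against 5.20, 4.67 and 4.54 FPKM in COLO205 and 10.5, 9.11 and 8.84 FPKM in HCT116 (difference 1.95 ± 0.05; limma, adjusted p = 8.31e-12). LAMB3, a laminin chain, averaged 101 ± 2.5 FPKM in MDAMB231, 36.3 ± 4.6 FPKM in COLO205 and 8.12 ± 0.26 FPKM in HCT116, whereas CDH3 (P-cadherin) averaged 0.129 ± 0.026 FPKM in MDAMB231, 0.987 ± 0.12 FPKM in COLO205 and 35.7 ± 2.8 FPKM in HCT116.

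Keratins, the intermediate filaments of epithelia, were still expressed in MDAMB231 in spite of its low junction genes. KRT8 and KRT18, which pair in simple epithelia, averaged 430 ± 17 and 391 ± 14 FPKM in MDAMB231, 1600 ± 82 and 1288 ± 37 FPKM in COLO205, and 806 ± 55 and 533 ± 37 FPKM in HCT116, and were below both lines. KRT7, a simple-epithelium keratin used to tell breast from colon, had 287, 292 and 308 FPKM in MDAMB231, against 2.5, 2.46 and 2.28 FPKM in COLO205 and 2.42, 2.08 and 1.85 FPKM in HCT116. The colorectal lines overlapped in KRT7 and lay far below MDAMB231 (difference 6.51 ± 0.05; limma, adjusted p = 5.59e-16). KRT23 was listed at 0 in the 3 MDAMB231 libraries and averaged 21.8 ± 1.2 FPKM in COLO205 and 7.36 ± 0.57 FPKM in HCT116. Of 10 keratins tested of 17, 4 were above both lines and 5 below both, against 26.3% and 29% over all genes. By at least 2-fold, 4 (40%) were above both and 1 (10%) was below both, against 8.88% and 5.37% over all genes.

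HOX genes, which keep a record of body position, were low in MDAMB231. Of 39 members 27 were tested, and 25 of these were lower and 2 higher. Below both lines were 24, and 13 at least 2-fold (48.1%, against 5.37% of all genes tested). A gene can pass the filter on low values through the colorectal libraries alone, so these shares follow in part from the filter. The 39 members summed to 9.94 to 11.6 FPKM in MDAMB231, 121 to 124 FPKM in COLO205 and 214 to 230 FPKM in HCT116. HOXA9 was listed at 0 in the 3 MDAMB231 libraries, against 19.7, 19.5 and 18.5 FPKM in COLO205 and 40.4, 40.9 and 41.9 FPKM in HCT116, and HOXA10 likewise, against 18.1 ± 0.40 FPKM in COLO205 and 8.43 ± 0.58 FPKM in HCT116. Within the HOXA cluster on chromosome 7, HOXA2 to HOXA6, HOXA9, HOXA10 and HOXA11 were listed at 0 in every MDAMB231 library, HOXA7 reached 0.0162 FPKM in 1 of them, and HOXA13, at the end of the cluster, averaged 0.309 FPKM in MDAMB231, 1.38 FPKM in COLO205 and 1.32 FPKM in HCT116. In the HOXB cluster HOXB7 averaged 0.253 ± 0.022 FPKM in MDAMB231, 18 ± 0.61 FPKM in COLO205 and 28.9 ± 2.7 FPKM in HCT116, but HOXB9 kept 3.35 FPKM in MDAMB231, beside 4.08 FPKM in COLO205 and 17.3 FPKM in HCT116. The higher members were HOXD1 and HOXD4, at 1.11 and 1.30 FPKM in MDAMB231, 0.0603 and 0.0914 FPKM in COLO205, and 0.00993 and 0.321 FPKM in HCT116.

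A second stretch of neighbouring genes listed at 0 lay on chromosome 9 around CDKN2A, which encodes the cell cycle inhibitor p16. It was singled out after the values were seen, from a search for runs of at least 3 neighbours in RefSeq order. CDKN2A, its relative CDKN2B, the antisense CDKN2B-AS1, the methylthioadenosine phosphorylase gene MTAP and KLHL9 were each listed at 0 in the 3 MDAMB231 libraries. MTAP had 21.6, 20.9 and 23.3 FPKM in COLO205 and 77.6, 77.3 and 72.6 FPKM in HCT116. CDKN2A averaged 25.4 FPKM in COLO205 and 21.9 FPKM in HCT116, CDKN2B averaged 4.88 and 2.05 FPKM in COLO205 and HCT116, and KLHL9 averaged 10.9 and 10.8 FPKM. Weakly expressed neighbours, PTPLAD2, IFNE and DMRTA1, which reached at most 0.0708, 1.02 and 0.106 FPKM in any library, were also listed at 0 in MDAMB231. FOCAD, the nearest gene beyond KLHL9 among those at 1 FPKM or more in 1 line, was low in MDAMB231 but not at 0: it averaged 0.470 FPKM in MDAMB231, 4.63 FPKM in COLO205 and 10.5 FPKM in HCT116, and MLLT3 beyond it averaged 3.48 FPKM in MDAMB231, 1.24 FPKM in COLO205 and 1.37 FPKM in HCT116. On the other side TUSC1 averaged 2.85 FPKM in MDAMB231 and 1.38 FPKM in COLO205 and was listed at 0 in the 3 HCT116 libraries. CAAP1 beyond it averaged 9.20 FPKM in MDAMB231, 12.3 FPKM in COLO205 and 9.56 FPKM in HCT116. No DNA was measured, and whether the genes are present was not tested.

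**Figure D4:**
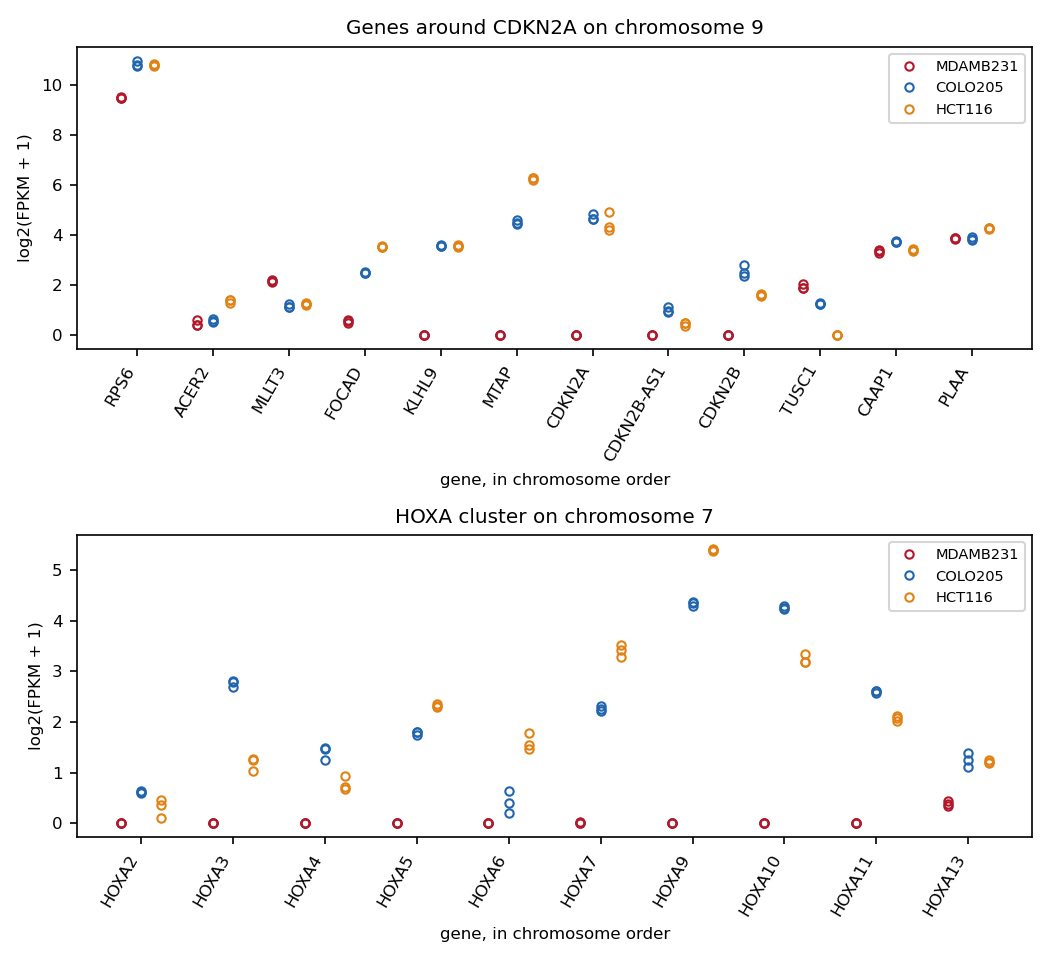
Levels of neighbouring genes as log2(FPKM + 1), 1 circle per library and 3 per line, for the genes around CDKN2A on chromosome 9 (upper panel) and the HOXA cluster on chromosome 7 (lower panel), in chromosome order. MDAMB231 is listed at 0 from KLHL9 to CDKN2B and at or near 0 from HOXA2 to HOXA11, with nonzero values in MDAMB231 on both sides of the chromosome 9 stretch; genes under 1 FPKM in all lines are not drawn on chromosome 9.

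In all, 88 genes had at least 5 FPKM in each MDAMB231 library and under 0.1 FPKM in each colorectal library, and 43 genes the reverse. Applied to 1 pair of lines at a time, which asks less, the same levels gave 253 genes on in MDAMB231 and off in COLO205 and 230 the reverse, 152 on in MDAMB231 and off in HCT116 and 102 the reverse, and 182 on in COLO205 and off in HCT116 and 169 the reverse. Among the 88, IGFBP7, a secreted insulin-like growth factor binding protein, averaged 271 FPKM in MDAMB231 and 0.0111 FPKM in COLO205 and was listed at 0 in HCT116. EFEMP1, a matrix glycoprotein, averaged 50.5 FPKM in MDAMB231 and GNG11, a G protein subunit, 54.5 FPKM, both listed at 0 in the colorectal libraries. The neighbouring cystatin genes CST4, CST1 and CST2 on chromosome 20 averaged 48.6, 77.6 and 12.4 FPKM in MDAMB231 and at most 0.0273 FPKM in a colorectal line. Among the 43, FGF19 and KLK6, a growth factor and a kallikrein protease, were listed at 0 in MDAMB231 and averaged 89.8 and 168 FPKM in COLO205 and 20.8 and 23 FPKM in HCT116, and the DNA repair gene MGMT averaged 0.0337 FPKM in MDAMB231, 18 FPKM in COLO205 and 9.16 FPKM in HCT116. XAGE1B, a cancer-testis gene, had 83.7, 115 and 87.9 FPKM in MDAMB231 and at most 0.0102 FPKM in COLO205, with 0 in HCT116, but its near-identical copies can share reads, so its own level is uncertain.

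Several of the largest differences fell outside the lists above. IGFBP4, an insulin-like growth factor binding protein, had 638, 638 and 676 FPKM in MDAMB231, against 122, 116 and 120 FPKM in COLO205 and 0, 0.0151 and 0.0158 FPKM in HCT116, whereas IGFBP2, of the same family, had 0.316, 0.281 and 0.274 FPKM in MDAMB231, against 70.9, 68.8 and 72.4 FPKM in COLO205 and 61.3, 68.9 and 76.9 FPKM in HCT116. TGM2 (tissue transglutaminase) averaged 223 ± 4.6 FPKM in MDAMB231, 0.0570 ± 0.0074 FPKM in COLO205 and 5.30 ± 0.58 FPKM in HCT116. BNIP3, a mitochondrial autophagy receptor, averaged 131 ± 3.0 FPKM in MDAMB231, 0.305 ± 0.15 FPKM in COLO205 and 17.7 ± 1.2 FPKM in HCT116, and the antioxidant GPX3 averaged 87.7 ± 1.1, 7.05 ± 0.43 and 0.0554 ± 0.038 FPKM in the same order of lines. PHGDH, the first enzyme of serine synthesis, averaged 1.82 ± 0.12 FPKM in MDAMB231, 126 ± 7.4 FPKM in COLO205 and 66.7 ± 4.3 FPKM in HCT116. Others of the largest differences were PRSS23 and SLC43A3 (above both) and CRIP1, S100A14, DNAJA4 and NTSR1 (below both).

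Antigen presentation and interferon response genes were high in MDAMB231 in the absence of added interferon. All 37 members were tested; 31 were higher and 5 lower, and 19 (51.4%) were at least 2-fold above both lines, against 8.88% of all genes tested. CD74, the chaperone of MHC class II, had 178, 179 and 199 FPKM in MDAMB231, against 0.823, 0.900 and 1.05 FPKM in COLO205 and 0.0902, 0.0680 and 0.0949 FPKM in HCT116, and HLA-DRA averaged 28.7 ± 1.3 FPKM in MDAMB231, 0.0916 ± 0.092 FPKM in COLO205 and 0.984 ± 0.19 FPKM in HCT116. Their activator CIITA averaged 2.53 FPKM in MDAMB231, 0.124 FPKM in COLO205 and 0.0206 FPKM in HCT116. Among interferon-induced antiviral genes, IFIT1 and IFIT3 averaged 37.3 ± 0.80 and 53.1 ± 2.4 FPKM in MDAMB231, 0.130 ± 0.056 and 1.44 ± 0.0065 FPKM in COLO205, and 2.76 ± 0.18 and 0.737 ± 0.058 FPKM in HCT116. MHC class I genes did not move as 1 set: HLA-B averaged 322 FPKM in MDAMB231, 37.3 FPKM in COLO205 and 64.5 FPKM in HCT116, while HLA-C averaged 132 FPKM in MDAMB231, 203 FPKM in COLO205 and 151 FPKM in HCT116, with reads that related HLA genes can share.

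Cytokines and NF-kB targets were higher in 15 and lower in 5 of the 21 tested of 30, and 9 (42.9%) were at least 2-fold above both lines, against 40.5% higher, 48.7% lower and 8.88% at 2-fold above both over all genes. IL6 had 12.6, 13.1 and 13.7 FPKM in MDAMB231, was listed at 0 in the 3 COLO205 libraries and reached 0.0248 FPKM in 1 HCT116 library. CSF1, the macrophage growth factor, had 94.6, 98.1 and 103 FPKM in MDAMB231, against at most 0.0940 FPKM in COLO205 and at most 1.37 FPKM in HCT116, and its receptor CSF1R averaged 1.82 ± 0.20 FPKM in MDAMB231 and at most 0.0286 FPKM in a colorectal line. The NF-kB subunit NFKB1 itself averaged 12.3 FPKM in MDAMB231, 11.3 FPKM in COLO205 and 13.1 FPKM in HCT116 and did not pass the test against the mean.

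WNT pathway genes and targets, which most colorectal tumours keep active, were lower in 21 and higher in 8 of the 29 tested of 31, with 5 (17.2%) at least 2-fold below both lines, against 48.7% lower and 5.37% at 2-fold below both over all genes. AXIN2, the feedback inhibitor, had 1.30, 1.17 and 1.17 FPKM in MDAMB231, against 23.4, 24.0 and 24.1 FPKM in COLO205 and 5.41, 5.35 and 5.43 FPKM in HCT116 (difference -2.51 ± 0.04; limma, adjusted p = 3.16e-14). TCF7, a factor that partners beta-catenin, averaged 1.17 ± 0.11 FPKM in MDAMB231, 306 ± 8.7 FPKM in COLO205 and 11.4 ± 0.77 FPKM in HCT116, and RNF43, which removes WNT receptors, averaged 2.85 ± 0.16 FPKM in MDAMB231, 54.7 ± 1.2 FPKM in COLO205 and 27.7 ± 1.2 FPKM in HCT116. The median difference was -1.04 from COLO205 and 0.00 from HCT116, so the list as a whole again followed COLO205. The secreted inhibitor DKK1 averaged 140 ± 2.9 FPKM in MDAMB231, 0.0293 ± 0.019 FPKM in COLO205 and 85.4 ± 4.2 FPKM in HCT116. MYC averaged 53.5 ± 2.5 FPKM in MDAMB231, 95.9 ± 4.8 FPKM in COLO205 and 135 ± 5.5 FPKM in HCT116.

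Receptor tyrosine kinases and mucins gave no single direction, and xenobiotic enzymes were mostly lower than the colorectal mean. The median difference of the enzymes was -1.77 from COLO205 and 0.00 from HCT116. Over all genes tested, 40.5% were higher and 48.7% lower. Of 26 receptor kinases tested of 34, 11 were higher and 14 lower. At 2-fold, 4 were above and 4 below both lines (15.4% each), against 8.88% and 5.37% over all genes. FGFR4 averaged 1.01 ± 0.037 FPKM in MDAMB231, 49.5 ± 1.4 FPKM in COLO205 and 25.5 ± 1.5 FPKM in HCT116, and ROR1 averaged 12.7 ± 0.33 FPKM in MDAMB231, 0.00775 ± 0.0092 FPKM in COLO205 and 0.608 ± 0.054 FPKM in HCT116. Of 6 mucins tested of 14, 2 were higher and 4 lower; MUC13 averaged 0.0146 ± 0.018 FPKM in MDAMB231, 129 ± 2.3 FPKM in COLO205 and 0.193 ± 0.016 FPKM in HCT116. Of 23 enzymes tested of 28, 6 were higher and 17 lower; CYP1B1 averaged 49.0 ± 1.2 FPKM in MDAMB231, 0.0357 ± 0.0054 FPKM in COLO205 and 0.361 ± 0.049 FPKM in HCT116, and ALDH1A1 averaged 0.0153 ± 0.013, 278 ± 4.0 and 0.0123 ± 0.011 FPKM in the same order of lines. The cancer-testis list had 5 members tested of 27, 1 higher and 4 lower than the colorectal mean. None of them was below both lines, and the median difference was 0.08 from COLO205 and -5.19 from HCT116.

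GDF15, a secreted stress factor, had 4.17, 3.96 and 5.28 FPKM in MDAMB231, against 114, 105 and 109 FPKM in COLO205 and 107, 127 and 157 FPKM in HCT116. CDKN1A (p21) averaged 37.6 ± 1.3 FPKM in MDAMB231, between 9.69 ± 0.60 FPKM in COLO205 and 126 ± 2.6 FPKM in HCT116.

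The SUMO pathway, the target of the drug in the study, differed member by member. Of 28 tested of 29, 10 were higher and 14 lower, shares near the 40.5% and 48.7% over all genes. The median was -0.12, close to the -0.09 of all genes. SUMO3, a modifier, had 102, 99.0 and 102 FPKM in MDAMB231, against 28.8, 26.4 and 29.4 FPKM in COLO205 and 17.1, 17.4 and 17.7 FPKM in HCT116 (difference 2.14 ± 0.04; limma, adjusted p = 1.20e-13). SUMO2 had 258, 256 and 253 FPKM in MDAMB231, between 165, 159 and 171 FPKM in COLO205 and 393, 416 and 381 FPKM in HCT116.

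Both subunits of the SUMO-activating enzyme were lower in MDAMB231 than the colorectal mean. UBA2, the catalytic subunit of the activating enzyme that ML-792 inhibits, had 34.1, 33.8 and 31.5 FPKM in MDAMB231, against 49.5, 48.7 and 49.7 FPKM in COLO205 and 53, 51.5 and 49.5 FPKM in HCT116 (difference -0.59 ± 0.03; limma, adjusted p = 9.65e-09). Its partner SAE1 averaged 70.7 ± 1.2 FPKM in MDAMB231, 73.2 ± 1.8 FPKM in COLO205 and 121 ± 0.69 FPKM in HCT116, so MDAMB231 overlapped COLO205. NSMCE2 and USPL1, a SUMO ligase and a SUMO protease, were at least 2-fold below both lines, and the nuclear body gene PML averaged 30.6 ± 0.73 FPKM in MDAMB231, 16.6 ± 1.1 FPKM in COLO205 and 9.55 ± 0.71 FPKM in HCT116.

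Genes of growth and division differed by small amounts in many members. Of 76 ribosomal protein genes 68 were lower and 3 higher, against 48.7% and 40.5% over all genes, with a median of -0.60. Below both lines were 62, against 29% over all genes, and 10 (13.2%) by at least 2-fold, against 5.37%. RPL4 averaged 452 ± 4.2 FPKM in MDAMB231, 1382 ± 30 FPKM in COLO205 and 1384 ± 53 FPKM in HCT116. Summed, they took 51010 to 51660 FPKM in MDAMB231, 73390 to 81330 FPKM in COLO205 and 80880 to 88760 FPKM in HCT116. RPL9, the largest difference among them, is uncertain: the table holds 3 entries of that name, and in MDAMB231 the entry RPL9_3 had 623 to 699 FPKM, against 5.6 to 21.3 FPKM in COLO205, while the sum of the 3 entries was 714 to 742 FPKM in MDAMB231, 952 to 1078 FPKM in COLO205 and 1041 to 1081 FPKM in HCT116. Of 30 G2 and mitosis genes 23 were higher and 5 lower than the colorectal mean, against 40.5% and 48.7% over all genes, but the median was 0.62 from COLO205 and 0.04 from HCT116, and 9 lay between the colorectal lines. In the ML-792 libraries 14 of them were higher and 10 lower. In vehicle, TOP2A, a topoisomerase of dividing cells, averaged 108 ± 3.0 FPKM in MDAMB231, 79.5 ± 1.8 FPKM in COLO205 and 42.3 ± 1.7 FPKM in HCT116. Of 18 mitochondrially encoded genes tested, 4 were higher and 9 lower, against 40.5% and 48.7% over all genes, and none reached 2-fold against both lines.

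Direction also varied by chromosome, for the 93.3% of tested genes that could be placed in RefSeq. Genes of chromosome 13 had a median difference of -1.54 from COLO205 and -0.31 from HCT116 (218 genes, 54.6% below both lines), and those of chromosome 15 -0.69 from COLO205 and -0.32 from HCT116 (426 genes, 50.5% below both). Chromosomes 16 and 22 were also low, with 50.7% and 48.3% of genes below both lines against 29% over all genes. Chromosomes 6, 11 and X had 40.2%, 37.4% and 40.2% of genes above both lines, against 26.3% over all genes. Copy number was not measured, and its part in these medians was not tested. Zinc finger genes with ZNF names showed a contrast of the same kind: 97 of 195 on chromosome 19 were above both lines and 14 below, whereas of 225 on other chromosomes 40 were above and 72 below.

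**Figure D5:**
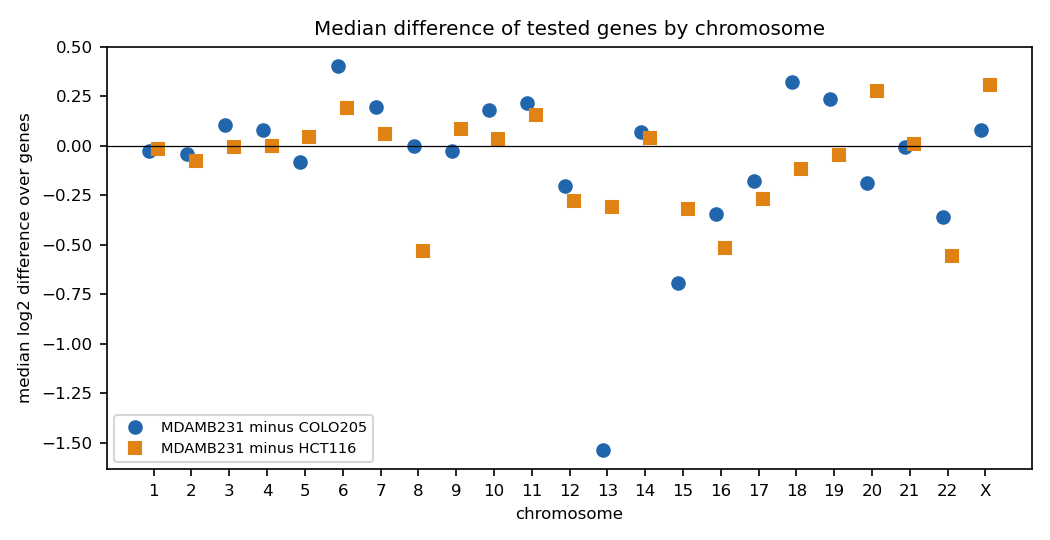
Median difference over the tested genes of each chromosome on the log2(FPKM + 1) scale, for MDAMB231 minus COLO205 (circles) and MDAMB231 minus HCT116 (squares). Chromosome 13 stands lowest at -1.54 against COLO205, and chromosomes 1, 2, 8, 12, 15, 16, 17 and 22 also lie below 0 against both lines.

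The pattern could be read again in libraries of the same 3 lines that the comparison did not use. Such a check describes these lines again and cannot speak for other lines of either tissue. In the 9 ML-792 libraries of 16 h, 1224 genes were at least 2-fold above both colorectal lines and 1079 of them were shared with the vehicle libraries (88.2% of the ML-792 genes, 87.4% of the vehicle genes); of 750 genes below both, 633 were shared (84.4% and 84.7%). With the 3 separate HCT116 vehicle libraries of 3.5 h in place of those of 16 h, 1138 genes above both and 600 below both were shared (92.1% and 80.3% of the main genes); that check reuses the MDAMB231 and COLO205 libraries.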

How the data were processed

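RNA from 9 cultures (3 lines, 3 libraries each, 0.01% DMSO for 16 h) had been sequenced from stranded poly(A) libraries, per the labels' protocols. The deposited table gives FPKM for 30373 genes in 30 libraries. DESeq2 1.10.1 appears in the submitters' processing notes with no stated use. How reads were aligned, and to which build and annotation, is not given in the sources used here, and depth in counts is unknown.

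Genes at 1 FPKM or more in 3 of the 9 libraries (13915) were analysed as log2(FPKM + 1) with limma 3.58.1 in R 4.3.3 (1 mean per line; eBayes with trend and robust options), and p-values were adjusted by Benjamini-Hochberg over all of them. Calls used an adjusted p under 0.05; 2-fold means 1 on this log2 scale, which understates changes of low genes. The script was tested on simulated data. Named genes were the 12 largest differences each way among well-expressed genes beyond both colorectal lines, the 5 largest of each list and a set of marker genes. The 3 largest differences each way among genes between the colorectal lines were named too. Others, chosen after their values were seen, are list exceptions and further members. Members and lists were chosen with earlier results of these data known. The DMSO libraries of HCT116 at 3.5 h and the ML-792 libraries of 16 h entered only as alternatives, beside other pseudocounts, filters, scalings, fits and leaving out each library. Results for some genes of these lists are not reported here, though the list counts include them.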

Additional observations from a re-analysis of the deposited data

Results flagged for a closer look

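In 12 named genes MDAMB231 lay between the colorectal lines: its differences from COLO205 and from HCT116 had opposite signs, and the difference between those lines passed the test (limma, Benjamini-Hochberg adjusted; the highest adjusted p was 4.01e-11, for SUMO2). The count is not a result about them, because some were named for lying between the lines, as 2775 of all 13915 genes tested did. A contrast of MDAMB231 with the colorectal mean does not describe these genes. Values below are COLO205 minus HCT116 on the log2(FPKM + 1) scale.

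Lactate dehydrogenase B (LDHB) differed by -9.69, with means of 291 FPKM in MDAMB231, 0.00780 FPKM in COLO205 and 833 FPKM in HCT116. TXNIP, an inhibitor of thioredoxin, differed by 7.29, with means of 89.8 FPKM in MDAMB231, 156 FPKM in COLO205 and 0.00380 FPKM in HCT116. TM4SF1, a surface tetraspanin-like protein, differed by 7.11, with means of 75.3 FPKM in MDAMB231, 145 FPKM in COLO205 and 0.0513 FPKM in HCT116. CD68, a lysosomal protein, differed by 4.85, with means of 55.9 FPKM in MDAMB231, 158 FPKM in COLO205 and 4.53 FPKM in HCT116.

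In another 4 genes MDAMB231 was close to HCT116 and COLO205 stood far above both. LYZ (lysozyme) differed by 9.46, S100P by 8.77, ALDH3A1 by 7.02 and TFF3 by 6.74, where TFF3 was listed at 0 in HCT116 and its fitted value depends on the pseudocount. LYZ averaged 0.439 FPKM in MDAMB231, 795 FPKM in COLO205 and 0.133 FPKM in HCT116. MAGEA2 differed by -5.39, with reads that related MAGEA genes can share. CDKN1A differed by -3.57, ACTA2 by -2.24 and SUMO2 by -1.26.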

How the results depend on the processing

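No paired analysis was possible because no label numbers the cultures. With the 6 colorectal libraries as 1 group, 6326 genes passed (3094 higher, 3232 lower), 1201 of them at least 2-fold lower; there the difference between COLO205 and HCT116 enters the spread by construction. With a pseudocount of 5 FPKM, 992 genes were at least 2-fold higher and 788 lower, 616 were above both colorectal lines and 281 below both; with 0.1 FPKM, 1272 were below both. The other counts over all genes stayed within 1.5 times. Of the counts of list members, 65 moved by more than 1.5 times and 1027 did not; 32 of the 65 came with the colorectal libraries as 1 group, where lower members fell to 3 for the intestinal list and 6 for the WNT list and higher members to 11 for the G2 and mitosis list. Leaving out each library gave 12060 to 12462 calls, 1966 to 1991 higher and 1889 to 1906 lower at 2-fold, and 1218 to 1243 above both and 742 to 758 below both at 2-fold. SUMO2, at 0.00 against the colorectal mean (limma, adjusted p = 0.981), had -0.16 with HCT116 of 3.5 h and -0.46 in ML-792 libraries. The cause was not tested. Equal totals moved the median of all genes by 0.106. Among named genes and settings, 3219 values kept direction and side of the threshold, 39 lost the call, 8 gained it and 2 reversed. Unknown depth limits statements on genes near 0.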

Other observations

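Runs of at least 3 neighbouring genes expressed in MDAMB231 and near 0 in both colorectal lines were noticed after the values were seen, among 13064 genes placed in RefSeq order. On chromosome 19, ZNF418, ZNF606 and ZSCAN18 averaged 2.05, 1.6 and 15.8 FPKM in MDAMB231 and at most 0.00266 FPKM in a colorectal line. A second run on chromosome 19 held ZNF790, ZNF345, ZNF829 and ZNF568, at 2.36, 1.28, 1.78 and 1.63 FPKM in MDAMB231. On chromosome 5 the clustered protocadherins PCDHB10, PCDHB11 and PCDHB13 averaged 1.1, 1.15 and 2.84 FPKM in MDAMB231. No test was made of these runs.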
